A study of Mus musculus with 15 samples.

Results

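A set of 10 core genes of the circadian clock, of the 55487 genes counted, was followed in RNA from the left ventricle of 15 mice. They were listed by name: the activators Arntl (also called Bmal1) and Npas2, the repressors Per1, Per2, Per3, Cry1 and Ciart, the nuclear receptors Nr1d1 and Nr1d2 (REV-ERB alpha and beta), and the output factor Dbp. All 10 were found and all 10 passed the filter on low counts. The animals were males killed at 225 days of age. Of these, 7 carried a Col4a5 mutation and had chronic kidney disease, and 8 were wild type littermates housed with them on normal chow. Col4a5 encodes a collagen IV chain of the glomerular basement membrane. The mutant is called a knockdown in one place of the labels and a knockout in another, and the anaesthetic is isoflurane in one and ketamine/xylazine in another. The labels give no clock time at which hearts were removed, so every value is a level at an unstated time of day.

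In the clock of mammalian cells, ARNTL pairs with CLOCK or NPAS2 and switches on genes that carry E-boxes, among them the Per, Cry, Nr1d and Dbp genes and Ciart. PER and CRY proteins, and CIART, repress that pair, while NR1D1 and NR1D2 compete with ROR receptors at RORE sites and repress Arntl, Npas2 and Cry1. DBP, TEF and HLF activate, and NFIL3 represses, genes with a D-box. In mouse heart, as in liver and kidney, Arntl and Npas2 are known to be high when Dbp, Nr1d1 and the Per genes are low, and Cry1 is known to run between both sets.

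RefSeq promoters on GRCm38.p6 were matched for 9 of the 10 genes, all but Per2, and were searched from 250 bases before to 50 after each start. The motifs were the E-box CACGTG, the E'-box CACGTT, the D-box as TTATGTAA or TTACGTAA, and the RORE core as TAGGTCA or TGGGTCA, each on both strands. Those shown carry the most matches or the one RORE core, with the matched letters in capitals and the bases before the start printed 5′ to 3′. Ciart is at chr3:95882229-95882478 on the minus strand, with 3 E-boxes. Per3 is at chr4:151044666-151044915 on the minus strand, with 2 D-boxes. Cry1 is at chr10:85185055-85185304 on the minus strand, with an E'-box followed by an E-box. The RORE core of Arntl is at chr7:113207531-113207557 on the plus strand, after the start, with 10 bases on each side. It lies in 1 of the 2 windows of Arntl, and the other window held none of these motifs.
Ciart: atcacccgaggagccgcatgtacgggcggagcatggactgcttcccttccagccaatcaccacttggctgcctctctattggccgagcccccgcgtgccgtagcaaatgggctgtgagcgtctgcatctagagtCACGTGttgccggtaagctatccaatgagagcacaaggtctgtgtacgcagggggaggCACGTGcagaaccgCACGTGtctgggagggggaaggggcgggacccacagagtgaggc
Per3: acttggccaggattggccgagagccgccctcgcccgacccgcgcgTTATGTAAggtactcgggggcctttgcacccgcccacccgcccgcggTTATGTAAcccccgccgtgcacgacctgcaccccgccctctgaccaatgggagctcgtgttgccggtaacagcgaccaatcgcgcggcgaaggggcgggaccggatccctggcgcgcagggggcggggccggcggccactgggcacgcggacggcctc
Cry1: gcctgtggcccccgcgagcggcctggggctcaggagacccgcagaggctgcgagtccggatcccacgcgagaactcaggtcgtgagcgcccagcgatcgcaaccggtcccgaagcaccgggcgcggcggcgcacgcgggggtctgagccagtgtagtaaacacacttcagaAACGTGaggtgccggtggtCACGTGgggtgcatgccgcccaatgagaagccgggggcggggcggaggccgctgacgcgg
Arntl: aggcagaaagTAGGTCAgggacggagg

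The first E-box letter of Ciart stood at positions -116, -58 and -44 from the start, and the D-boxes of Per3 at -205 and -158. Per1 held an E-box at -166 of one of its 2 windows, and Nr1d1 held an E'-box at -28. None of the 4 motifs was found in the windows of Npas2, Nr1d2 and Dbp. Of 32851 promoters of the same length, 7.15% held an E-box, 4.68% an E'-box, 1.06% a D-box and 6.45% a RORE core. No match overlapped another. These are matches of letters, and binding was not measured.

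Library totals ran from 48748379 to 65519279 counts, and the members had from 92 counts (Ciart, in its lowest library) to 9629 (Nr1d1). Col4a5 was lower in every mutant library, at 9.19 to 16.2 CPM (counts scaled to library size) against 50.4 to 65.7, a log2 change of -2.08 (SE 0.11, edgeR quasi-likelihood test, adjusted p = 3.0e-09). Markers of ventricular cardiomyocytes summed to 52678 to 64556 CPM in the mutants and 59667 to 72875 in the littermates. Atrial markers summed to between 35.6 and 1793 CPM in the 15 libraries. Summed macrophage markers did not overlap, with 323 to 455 CPM in the mutants and 227 to 282 in the littermates. The sums of all other cell types looked at overlapped. Among single genes tested, 0.565% did not overlap between groups. In whole tissue, fewer cells of a type and less RNA per cell cannot be told apart. The gene with most counts was Ttn in 5 libraries (kidney disease 4, 5 and 7, wild type 6 and 7) and mt-Co1 in the other 10.

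Arntl, the activator without which the clock stops, was at 2.98, 21.3 and 28.1 CPM in the lowest, median and highest kidney disease library and at 3.23, 14.6 and 29.2 CPM in wild type. Both groups therefore held libraries near 3 CPM and near 29, and their ranges lay almost on top of each other. Npas2, which can stand in for CLOCK as its partner, was at 2.95, 9.56 and 14.2 CPM in kidney disease and 3.40, 9.13 and 12.7 in wild type. Kidney disease 2 was the lowest library for both activators, followed by wild type 1. The log2 difference between kidney disease and wild type was 0.17 for Arntl (SE 0.43, 95% interval -0.72 to 1.07, edgeR adjusted p = 0.93) and 0.09 for Npas2 (SE 0.31, adjusted p = 0.95).

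Dbp, a PAR bZIP factor that carries the clock's signal to output genes, had among the widest ranges: 15.2, 27.8 and 144 CPM in kidney disease and 12.9, 42.4 and 135 in wild type. Ciart, a repressor of the ARNTL complex, was at 1.77, 3.47 and 20.1 CPM in kidney disease and 1.90, 3.42 and 13.6 in wild type. For both genes kidney disease 2, wild type 1 and wild type 3 were the 3 highest libraries, the same 3 in which Arntl was lowest. The group difference was -0.07 for Dbp (SE 0.52, interval -1.16 to 1.03, edgeR adjusted p = 0.98) and 0.26 for Ciart (SE 0.53, interval -0.84 to 1.36, adjusted p = 0.91).

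Nr1d1, a heme-binding repressor, was at 69.6, 90.5 and 171 CPM in kidney disease and 79.1, 138 and 198.2 in wild type. It did not vary evenly: the 7 libraries with most Arntl lay between 69.6 and 92.4 CPM, and the other 8 between 133 and 198.2. Nr1d2 was at 63.0, 72.7 and 152 CPM in kidney disease and 59.0, 98 and 135 in wild type. The lower medians in kidney disease went with log2 differences of -0.21 for Nr1d1 (SE 0.22, interval -0.67 to 0.25, edgeR adjusted p = 0.78) and -0.07 for Nr1d2 (SE 0.21, adjusted p = 0.93), neither past the threshold.

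Per1, which also answers directly to hormones and stress, was at 38.5, 59.0 and 116 CPM in kidney disease and 31.4, 70.1 and 127 in wild type. Per2 was at 4.86, 9.67 and 36.7 CPM against 4.83, 13.6 and 30.0. Per3 was at 12.4, 26.1 and 66.1 CPM against 17.1, 26.6 and 60.1. The highest library for Per2 and Per3 was again kidney disease 2, while Per1 was highest in wild type 3. Group differences were -0.11 (SE 0.27), -0.10 (SE 0.43) and -0.17 (SE 0.33) for Per1, Per2 and Per3, with edgeR adjusted p = 0.93, 0.96 and 0.90.

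Cry1, the repressor that is known to act latest in the cycle, was the member that varied least. It was at 7.37, 11.8 and 14.3 CPM in kidney disease and 8.24, 12.3 and 13.9 in wild type, a 1.95-fold range over all libraries. The group difference was -0.02 (SE 0.14, interval -0.32 to 0.28, edgeR adjusted p = 0.98).

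**Figure D1:**
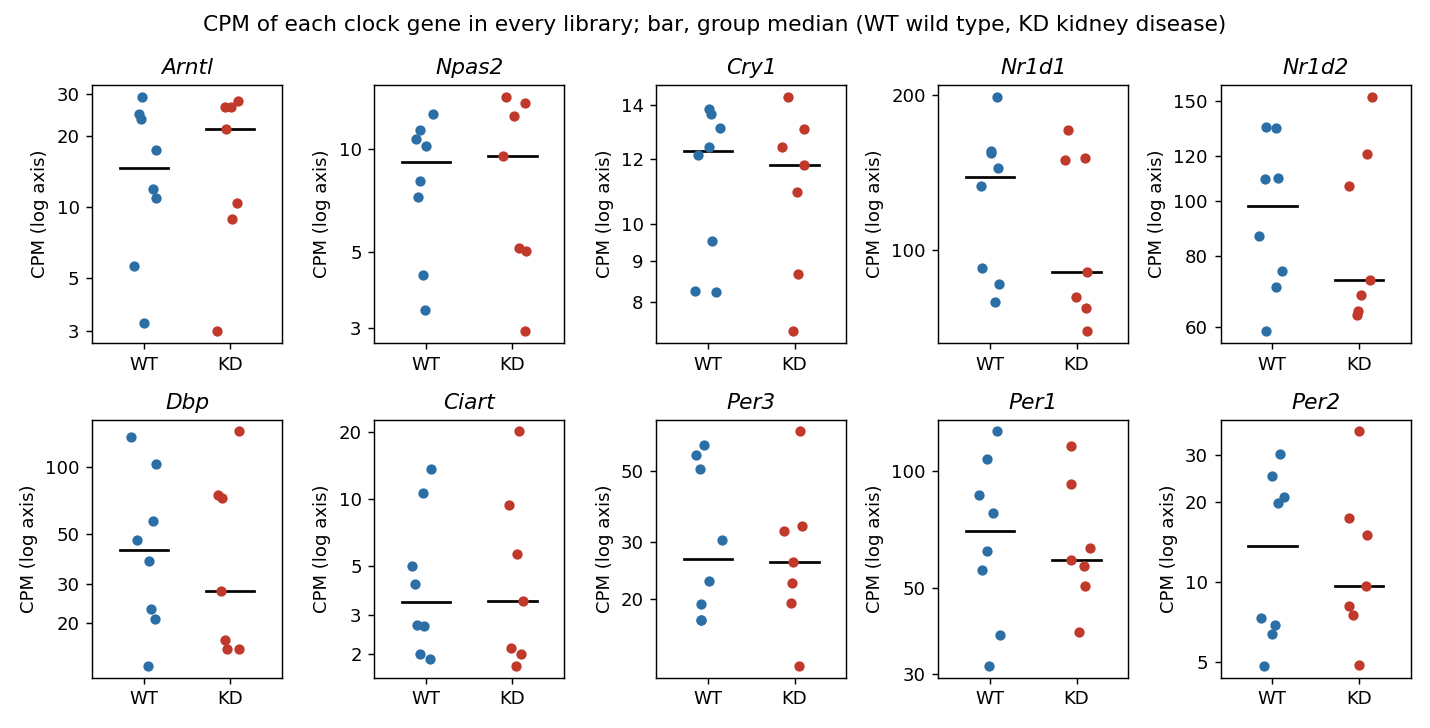
CPM of each member (log axis) in wild type (blue, WT, 8 libraries) and kidney disease (red, KD, 7 libraries), with a bar at the group median. The groups overlap in all 10 panels; Arntl runs from 2.98 to 28.1 CPM in KD and from 3.23 to 29.2 in WT.

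None of the 10 members passed the threshold between groups, whereas 1.28% of the 20718 genes tested did (266 genes, edgeR adjusted p under 0.05). At an unadjusted p under 0.05 the members' count was also 0, against 12.4% of all genes, and DESeq2 and limma-voom called 0 as well. The median log2 difference was -0.07 over the members and 0.0042 over all genes. The CPM ranges of the 2 groups overlapped for all 10, and they failed to overlap for 0.565% of all genes. The intervals are wide, and the missing calls do not show that the groups are alike. Signs also changed with the fit. Mitochondrially encoded genes took between 11.7 and 14.4% of counts in the wild-type libraries and between 10.5 and 12.8% in those from kidney disease, and the part of this in the differences was not tested. With that share as a covariate, added after seeing the data, Arntl was at -0.30, Dbp at 0.82 and Ciart at 1.08 (SE 0.56, adjusted p = 0.26). Among the 10 libraries led by mt-Co1, Arntl was at -0.17, Npas2 at -0.47 and Dbp at 0.28, and no member passed.

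Per kilobase of exon, which allows genes to be ranked, Nr1d1 was highest at 39.7 ± 13.4 CPM per kb (SD, n = 15). Dbp (17.9 ± 14.7), Nr1d2 (17.6 ± 5.67) and Per1 (12.6 ± 5.23) followed and did not differ beyond their SDs. The remaining 6 ran down from Cry1 (3.39 ± 0.70) through Per3, Ciart, Per2 and Arntl to Npas2 (1.82 ± 0.80). Means of neighbours in that order lay within their SDs over libraries, while the means of Cry1 and Npas2 differed by more than either SD. Dbp shares 539 of its 2993 exon bases (18.0%) with Sphk2, and Nr1d1 shares 263 of 3077 (8.55%) with Thra, in both cases on the opposite strand. How strand was treated in counting is not given in the sources used here. Both levels are uncertain by what such reads add.

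The highest library stood above the lowest by 11.4-fold for Ciart, 11.2-fold for Dbp, 9.81-fold for Arntl, 7.59-fold for Per2 and 5.34-fold for Per3. It was 4.82-fold for Npas2, 4.03-fold for Per1, 2.85-fold for Nr1d1 and 2.58-fold for Nr1d2. The SD of log2 CPM within groups was 1.24 for Dbp, at percentile 99.7 of all genes tested, 1.18 for Ciart (99.5), 1.15 for Arntl (99.4) and 1.01 for Per2 (98.5). For Nr1d1 it was 0.51 (77.1), for Nr1d2 0.47 (74.2) and for Cry1 0.33 (61.5). Ciart rested on 92 to 1134 counts and Arntl on 158 to 1844. The width was found in each group by itself: Arntl spanned 9.43-fold among the kidney disease libraries and 9.04-fold among wild type, and Dbp 9.44-fold and 10.5-fold.

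To ask whether libraries differed more in one group, absolute deviations from the group mean were compared with limma. No member passed, and neither did any gene (0% of 20718, with 1087 at an unadjusted p under 0.05, 5.25% of genes, none of them a member). The same test found few of the differences placed in simulated data, so a count of 0 does not show that the spread was equal. The difference in mean absolute deviation ran from -0.21 for Per2 (SE 0.21) to 0.26 for Dbp (SE 0.29, adjusted p = 0.997).

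The libraries were next set in order of Arntl, which ran kidney disease 2, wild type 1, wild type 3, kidney disease 1, kidney disease 3, wild type 4, wild type 7, wild type 2, kidney disease 5, wild type 8, wild type 5, kidney disease 4, kidney disease 7, kidney disease 6 and wild type 6. Dbp fell along nearly the same order, from 144 CPM in kidney disease 2 to 12.9 in wild type 6. The log2 difference between Dbp and Arntl, used only to set libraries against each other, ran from 5.58 (kidney disease 2) to -1.18 (wild type 6). Kidney disease had a median of 0.38 (lowest -0.87, highest 5.58) and wild type one of 1.55 (lowest -1.18, highest 5.37), and the groups were interleaved.

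The order by Arntl also went with the number each library carries in its deposited name, which alternates loosely between the groups and whose meaning is not given in the sources used here. In the 7 lowest-numbered libraries (wild type 1 to 4, kidney disease 1 to 3) Arntl was between 2.98 and 17.3 CPM. In the other 8 it was between 21.3 and 29.2 CPM, except in wild type 7 at 11.8. Log2 CPM of Arntl against place in that numbering had r = 0.74 (permutation p = 0.0018, adjusted p = 0.018 over 10 library measures) and rho = 0.76 (permutation p = 0.0013, adjusted p = 0.013). Without the 2 libraries farthest from the median of Arntl r was 0.64. The numbering was looked at after seeing the data. All libraries led by Ttn lay at places 9 to 15, and places 1 to 8 were all led by mt-Co1. Fits by leading gene are therefore not independent of place in the numbering.

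Neighbours in the middle of that order showed members coming apart. Wild type 2 had Nr1d1 at 154 CPM, among the high libraries, with Per1 at 37.8 and Per2 at 6.88 CPM, among the low ones. Wild type 7 had Nr1d1 at 144 CPM with Per2 at 24.9 and Per3 at 55.8 CPM, both high. Cry1 was lowest in kidney disease 1, wild type 4, wild type 7 and kidney disease 3, which lay in the middle by Arntl, and not at either end.

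**Figure D2:**
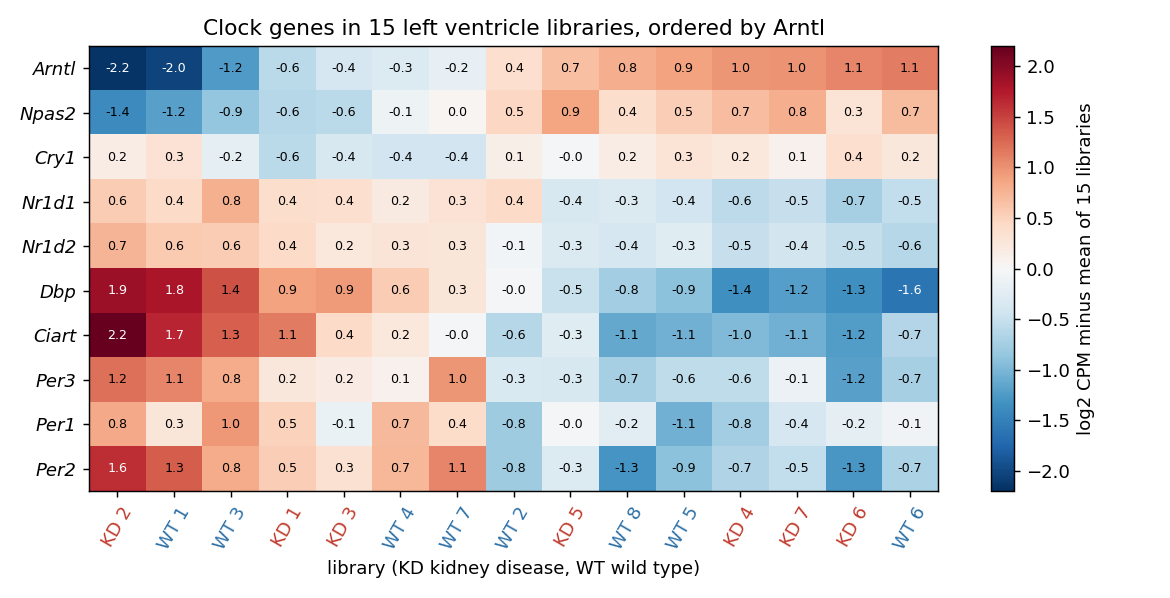
Log2 CPM of each member minus its mean over 15 libraries (colour and printed value), with libraries ordered by Arntl and named by group (KD kidney disease, WT wild type) and replicate. Arntl and Npas2 run from low (blue) to high (red), 7 genes run the other way, and Cry1 is lowest in the middle.

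Across libraries the members, chosen with earlier results of these data known, split into a rising and a falling set. When each gene was fitted against log2 CPM of Arntl with group as a second term, 8 of the 9 other members passed, against 0.584% of the 20717 genes tested (121 genes). Npas2 rose by 0.66 log2 units for each log2 unit of Arntl (SE 0.06, edgeR adjusted p = 1.8e-06), and among all genes 0.256% rose. The other 7 members that passed fell, as did 0.328% of all genes. Dbp and Ciart mirrored Arntl nearly unit for unit, at -1.05 (SE 0.07, adjusted p = 4.3e-08) and -0.998 (SE 0.06, adjusted p = 2.2e-08). Per2 at -0.78 (SE 0.09) and Per3 at -0.59 (SE 0.07) were less steep, and Nr1d2 at -0.40 (SE 0.03), Nr1d1 at -0.39 (SE 0.06) and Per1 at -0.40 (SE 0.09) shallower still. The median slope was -0.40 over the 9 and 0.0017 over all genes. With place in the library numbering as a further covariate, added after seeing the data, genes called fell from 121 to 12 rising and 15 falling, and 6 of the 9 members passed, among them Dbp (-0.95, SE 0.10), Ciart (-0.91, SE 0.09) and Npas2 (0.63, SE 0.08).

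Per1 passed narrowly, at an adjusted p of 0.045. It missed the threshold with limma-voom (0.058), with upper-quartile scaling, with a filter at 1 CPM, in the mt-Co1-led libraries (0.15), with Dbp in place of Arntl, with place in the numbering as a covariate (slope -0.56, adjusted p = 0.21), and without any 1 of 10 libraries (kidney disease 1 to 5 and 7, wild type 3, 5, 6 and 8). Nr1d1 missed it in the mt-Co1-led libraries (slope -0.34, adjusted p = 0.065), where 6 of the 9 members passed, and with place in the numbering as a covariate (-0.30, adjusted p = 0.36). Cry1 had a slope of 0.07 (SE 0.06, interval -0.07 to 0.20, edgeR adjusted p = 0.81). The overlapping neighbours, named after their values were seen, did not pass in edgeR: Sphk2 had a slope of 0.07 (SE 0.02, adjusted p = 0.18) and Thra of -0.0042 (SE 0.03, adjusted p = 0.99), although DESeq2 called Sphk2 (adjusted p = 0.036) and the sign of Thra changed with the scaling.

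**Figure D3:**
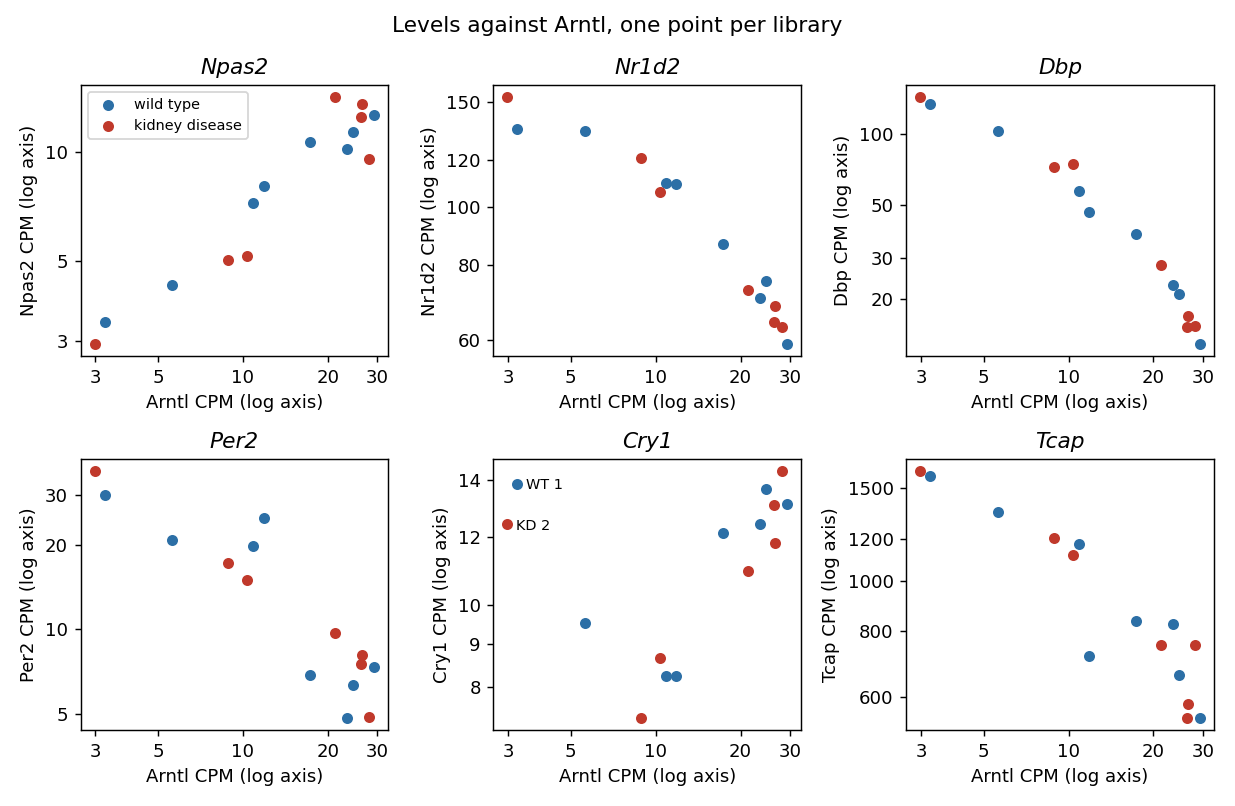
CPM of Npas2, Nr1d2, Dbp, Per2, Cry1 and Tcap against CPM of Arntl (both log axes), 1 point per library, wild type in blue and kidney disease in red. Dbp falls from 144 to 12.9 CPM as Arntl rises, and Cry1 turns: kidney disease 2 and wild type 1 have the least Arntl with Cry1 at 12.4 and 13.9 CPM.

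With Arntl as a covariate the group contrast became more precise for most members. The SE for Dbp went from 0.52 to 0.14 and for Ciart from 0.53 to 0.13. Dbp was then at -0.01 (interval -0.30 to 0.29) and Ciart at 0.24 (interval -0.04 to 0.52, edgeR adjusted p = 0.51), with Nr1d1 at -0.18 (SE 0.12, adjusted p = 0.59). None of the 9 passed, against 1.37% of all genes, and none had an unadjusted p under 0.05, against 12.5% of all genes. Of the 266 genes called without the covariate, 250 (94.0%) were among the 283 called with it (88.3%). None of the 266 was among the 121 genes that followed Arntl. As only 0.584% of all genes tested followed Arntl, few shared genes were to be expected, and their absence says little.

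**Figure D4:**
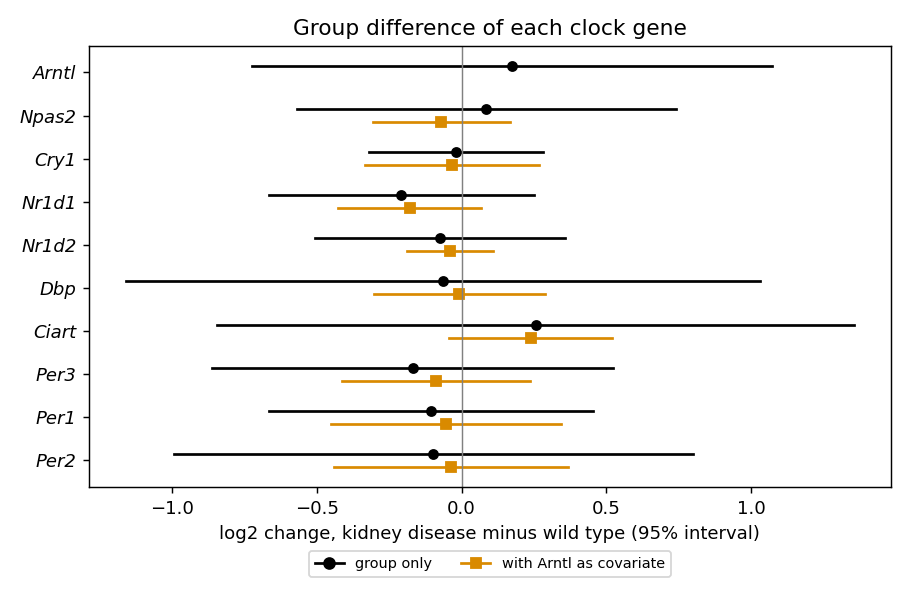
Log2 change of each member, kidney disease minus wild type, with its 95% interval, from group alone (black circles) and with Arntl as a covariate (orange squares; Arntl itself has none). Every interval includes 0, and those for Dbp and Ciart shrink most, to -0.30 to 0.29 and -0.04 to 0.52.

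The pairwise correlations gave the same 2 sets. Of 45 pairs, 38 passed by Pearson's r and 36 by Spearman's rho (two-sided permutation tests with 100000 resamples, adjusted over the 45). These tests treat libraries as exchangeable. No pair was adjusted for place in the library numbering, with which Arntl had r = 0.74. Arntl and Dbp had r = -0.97 and rho = -0.99 (permutation p = 1e-05 for both, the smallest 100000 resamples can give). The adjusted permutation p was 2.8e-05 for r and 5.0e-05 for rho. Without the 2 libraries farthest from the median of Arntl r was -0.98. Arntl and Npas2 had r = 0.96 (permutation p = 1e-05) and rho = 0.85 (permutation p = 0.00011), with r = 0.92 without those 2. The 21 pairs among Per1, Per2, Per3, Nr1d1, Nr1d2, Dbp and Ciart had r from 0.65 (Per1 with Nr1d1) to 0.98 (Nr1d2 with Dbp). The 14 pairs of Arntl or Npas2 with those genes had r from -0.97 to -0.71. Within groups the signs held, with r of the 21 pairs from 0.75 to 0.99 among kidney disease libraries and from 0.57 to 0.98 among wild type.

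Since Nr1d1 fell into a low and a high set of libraries, r with Arntl was also taken in the 7 libraries with most Arntl and the other 8, a division chosen after seeing the data and given with no test. For Dbp it was -0.98 and -0.97, for Nr1d2 -0.83 and -0.94, and for Nr1d1 -0.82 and -0.52. Ciart had r = -0.43 in the 7 and -0.96 in the 8, Per2 -0.26 and -0.81, and Per3 -0.42 and -0.81. Npas2 had r = -0.24 in the 7 and 0.95 in the 8, Per1 -0.0057 and -0.57, and Cry1 0.68 and -0.53. Each r was taken over a narrower range of Arntl than the pooled value.

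Cry1 passed with few of the others. Its 9 pairs had r from -0.55 to 0.29, and 2 passed by Pearson's r, with Per1 and Nr1d1, and 0 by Spearman's rho. With Arntl it had r = 0.28 (permutation p = 0.32) and rho = 0.44 (permutation p = 0.10). Without kidney disease 2 and wild type 1, the 2 libraries farthest from the median of Arntl, r was 0.85, so the weak pooled value rests on those 2. Both pairs that passed missed the threshold among the mt-Co1-led libraries, as did Per1 with Nr1d1 (r = 0.60). When single libraries were left out, Cry1 with Per1 missed it in 11 of 15 cases (it passed without wild type 1, wild type 6, kidney disease 2 and kidney disease 3). Cry1 with Nr1d1 missed it in 12 of 15 (it passed without wild type 1, wild type 2 and kidney disease 2).

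Genes elsewhere in the clock were read from a list. Like the lists that follow, it was chosen with earlier results of these data known. Its counts beside those of all genes are therefore a description. Of its 18 further clock genes, 7 passed the slope test (0.584% of all genes did), 2 rising and 5 falling. An unadjusted p under 0.05 in that test was found for 9 of the 18, against 9.61% of all genes. The median slope over the 18 was -0.03. Tef and Hlf, PAR bZIP relatives of Dbp, fell at -0.43 (SE 0.04, edgeR adjusted p = 2.2e-06) and -0.41 (SE 0.04), and Nfil3, their competitor at the D-box, rose at 0.43 (SE 0.06, adjusted p = 0.00065). Cry2 fell at -0.31 (SE 0.02), and so did Bhlhe41 at -0.38 (SE 0.03) and Bhlhe40 at -0.32 (SE 0.05), repressors that bind E-boxes. Clock, the usual partner of ARNTL, rose at 0.16 (SE 0.02, adjusted p = 0.0022). Those that did not pass include the kinases Csnk1d and Csnk1e, Arntl2 and the 3 Ror genes. With place in the library numbering as a covariate 5 of the 18 passed the slope test, and Nfil3 (0.38, adjusted p = 0.21) and Bhlhe40 (-0.19, adjusted p = 0.63) did not. Between groups none of the 18 passed. An unadjusted p under 0.05 was found for 2, near the 12.4% of all genes: Rorb (-0.52, SE 0.18, edgeR adjusted p = 0.20) and Csnk1e (0.10, SE 0.05, adjusted p = 0.37), and DESeq2 and limma-voom called 0.

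The 24 genes listed as clock outputs in heart were also chosen with earlier results of these data known. Of these 24, 7 passed the slope test (0.584% of all genes did), 2 rising and 5 falling. Their share is a description and no independent support. An unadjusted p under 0.05 in that test was found for 15 of the 24, against 9.61% of all genes. The median slope over the 24 was -0.09. Usp2, a ubiquitin protease, fell at -0.37 (SE 0.04, edgeR adjusted p = 7.6e-06), Tspan4 at -0.35 (SE 0.03), the mitotic kinase Wee1 at -0.25 (SE 0.05), the transcription factor Klf9 at -0.24 (SE 0.04) and the potassium channel Kcnh2 at -0.16 (SE 0.03). Leo1 rose at 0.29 (SE 0.04), and Cdkn1a, a cell cycle inhibitor, at 0.53 (SE 0.12, adjusted p = 0.047). Cdkn1a lost its call with limma-voom (adjusted p = 0.11) and without any 1 of 10 libraries (kidney disease 1, 2, 3, 5 and 6, wild type 1, 3, 6, 7 and 8). It also lost it with the mitochondrial share as a covariate, in the mt-Co1-led libraries, with Dbp in place of Arntl and with no group term. Leaving out any 1 of wild type 1, wild type 6, wild type 8 and kidney disease 2 ended the call of Wee1, and any 1 of wild type 1, wild type 3, wild type 8 and kidney disease 2 that of Kcnh2. Wee1 and Klf9 missed the threshold in the mt-Co1-led libraries, and Wee1 also with the mitochondrial share as a covariate and with Dbp in place of Arntl. With place in the library numbering as a covariate the count was 3 (Usp2, Tspan4 and Leo1). It was 4 without kidney disease 2, without wild type 1 or without wild type 8, and 4 in the mt-Co1-led libraries. Klf15, Pdk4, Hcn4 and Kcnip2, genes often discussed for cardiac rhythm and fuel use, were among those of the 24 that did not pass with all libraries. None of the 24 passed between groups in edgeR, DESeq2 or limma-voom, and 1 had an unadjusted p under 0.05 (12.4% of all genes did), Pdk4, a switch from glucose to fat oxidation (-0.55, SE 0.25, edgeR adjusted p = 0.38).

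**Figure D5:**
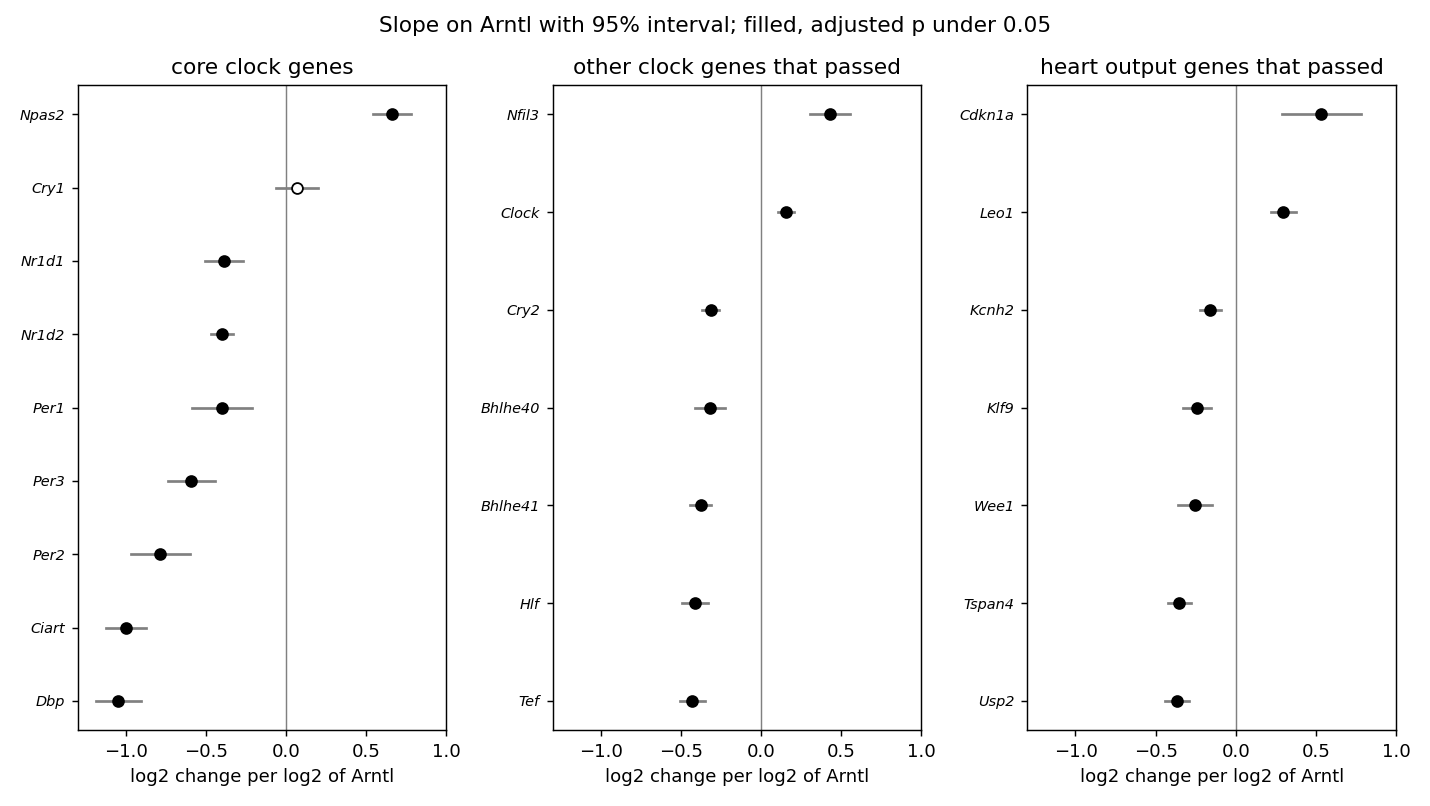
Log2 change per log2 unit of Arntl with its 95% interval for the other 9 members and, of the 18 further clock genes and 24 heart output genes, the 7 of each that passed the edgeR test; filled points passed and open points did not. The 8 filled members run from Dbp at -1.05 to Npas2 at 0.66, and Cry1 is open.

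Genes that glucocorticoids or handling can move were set beside these. Of 12 glucocorticoid-responsive genes, 2 passed the slope test (0.584% of all genes did), Klf9 and Cdkn1a, which are also on the output list. An unadjusted p under 0.05 in that test was found for 7 of the 12, against 9.61% of all genes. The number passing was 1 without any 1 of the 10 libraries named for Cdkn1a, and 0 with place in the library numbering as a covariate. The stress genes Ddit4 (0.48, SE 0.14, edgeR adjusted p = 0.21) and Errfi1 (0.28, SE 0.08, adjusted p = 0.19) did not pass. None of 12 immediate early genes passed the slope test in edgeR, DESeq2 or limma-voom, and none had an unadjusted p under 0.05, against 9.61% of all genes, with Junb nearest (-0.11, SE 0.06, edgeR adjusted p = 0.53). Of the 10 library measures set against Arntl, none other than place in the numbering passed. The nearest was the summed ventricular cardiomyocyte level (r = -0.57, permutation p = 0.026, adjusted p = 0.13, rho = -0.57 with permutation p = 0.028, r = -0.58 without the 2 farthest libraries). The summed endothelial level had r = 0.35 (permutation p = 0.20) and rho = 0.44 (permutation p = 0.10), and r = 0.63 without those 2 libraries, kidney disease 2 and wild type 1. The erythroid sum had r = -0.43 (permutation p = 0.11) and rho = -0.48 (permutation p = 0.074), and r = -0.56 without them. The part of these measures in the clock gene levels was not tested. The mitochondrial share had r = -0.36 (permutation p = 0.18) and rho = -0.40 (permutation p = 0.14). With that share as a covariate, 8 of the 9 members still passed.

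Likeness to Arntl and to Dbp was ranked by r of group-centred log2 CPM over the 15 libraries among 12459 genes, as a description. The core members were left out of the ranking, but genes of the lists above were not. Clock, Cry2, Bhlhe41, Tef, Hlf and Nfil3 are among the further clock genes already given, and Usp2 and Tspan4 among the heart output genes. Adamts4, a secreted protease, was most like Arntl (r = 0.98, 0.31 to 3.53 CPM), followed by Unc119b (0.96), Tmem171 (0.95), Trp53i11 (0.93), Foxs1, Adam19, Clock and Fam124b (each 0.92). Cry2 (-0.97), Bhlhe41 (-0.96), Tef (-0.95), Usp2, Tspan4, Ephx1 (each -0.94), Hlf and Mthfd1l (each -0.93) were the most opposed. Most like Dbp were Usp2 (0.96), Bhlhe41 (0.95), Tcap (0.95), Adora1 (0.94), Tef (0.94), 1810013L24Rik, Cry2 (each 0.93) and Dusp7 (0.91). Tcap, which encodes the titin cap protein of the sarcomere, ran from 548 to 1617 CPM, a 2.95-fold range. Adamts4 (-0.93), Unc119b, Foxs1, Nfil3, Trp53i11, Cldn5, Tmem171 and Ctbp2 (-0.89) were the most opposed to Dbp.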

How the data were processed

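Total RNA from the left ventricle of 15 mice was depleted of ribosomal RNA with KAPA RiboErase, and RNA integrity numbers were 8 or more, per the labels' protocols. For 55487 genes the deposited tables, 1 per library, gave the raw count and the CPM and FPKM derived from it. Tools named in the submitters' processing notes are STAR 2.7.9a, featureCounts 2.0.3 (Subread) and bcl2fastq, on GRCm38. Whether counting used strand is not given in the sources used here. The deposited CPM and FPKM values were recomputed from the deposited counts within 1e-06 and were not used further. Symbols came from GENCODE M21 on GRCm38 (55227 identifiers matched, 260 did not).

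After TMM scaling, edgeR's quasi-likelihood test (version 4.0.16, R 4.3.3) was run over the 20718 genes kept by filterByExpr (minimum count 10), with Benjamini-Hochberg adjustment over all genes and a threshold of 0.05. The slope fit added log2 CPM of Arntl to the group term. Spread was tested with limma 3.58.1 and correlations by permutation, on log2 CPM with a prior count of 2. All CPM printed here use TMM-scaled library sizes. DESeq2 1.42.0, limma-voom, other scalings and filters, a replicate block, covariates and leaving out each library were tried. The fits were tested on simulated data, where the test of spread found few of the changes placed. Libraries held 48748379 to 65519279 counts, so the spread between libraries sets the precision for all but the lowest genes. As each animal gave a single library, differences between animals and those of handling or preparation cannot be told apart.

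The members and gene lists were chosen with earlier results of these data known. Named genes were the 10 members, the 4 genes of each list with the smallest p in each fit, and the 8 genes most and least like Arntl and Dbp. Bhlhe40, Kcnh2, Sphk2 and Thra were named after their values were seen, as were list members given by name alone. Not every list member is reported here by name.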

Additional observations from a re-analysis of the deposited data

How the results depend on the processing

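No member was called between groups in any alternative, and the 8 members called against Arntl stayed at 6 to 8 outside the replicate block. Leaving out each library moved the share of the 55487 genes called as higher (0.303% with all) to between 0.121% and 0.353%, and as lower (0.177% with all) to between 0.0541% and 0.346%, the latter by over 1.5 times for every library but wild type 2 and 8. Genes rising with Arntl (53) numbered 22 to 71 and those falling (68) 28 to 85. The lowest rising counts came without wild type 1 or 6, and the lowest falling count without kidney disease 2. Output genes called were 4 to 7, glucocorticoid-responsive genes 1 to 3, immediate early genes between groups 0 to 1, and genes with unequal spread 0 to 2.

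Genes called as lower came to 0.117% with no filter, 0.278% with a 1 CPM filter, 0.472% in DESeq2, 0.339% with the leading gene as covariate, 0.269% with place in the library numbering as covariate and 0.0649% in the libraries led by mt-Co1. Those called as higher came to 0.681% in DESeq2, 0.604% with the leading gene, 0.191% with the mitochondrial share and 0.0901% in the mt-Co1-led libraries. Rising genes numbered 155 in DESeq2 and 90 with the leading gene, and falling genes 137 in DESeq2 and 44 with Dbp in place of Arntl. With place in the numbering they were 12 and 15, with 3 output genes and 0 glucocorticoid-responsive genes. Glucocorticoid-responsive genes called were 1 with limma-voom, the mitochondrial share, Dbp or no group term, and 0 in the mt-Co1-led libraries, where output genes were 4. The cause of these shifts was not tested.

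Group differences that changed sign, none past the threshold, were Arntl (-0.022) and Npas2 (-0.18) with the leading gene, and Npas2 (-0.069) with Arntl and (-0.052) with place in the numbering as covariate. With the mitochondrial share they were Arntl -0.30, Npas2 -0.42, Per1 0.015, Per2 0.19, Cry1 0.019, Nr1d1 0.047, Nr1d2 0.22 and Dbp 0.82. In the mt-Co1-led libraries they were Arntl -0.17, Npas2 -0.47, Per1 0.16, Per2 0.32, Per3 0.12, Nr1d2 0.12 and Dbp 0.28. Without 1 library the differences ran from -0.39 to 0.62 for Ciart, -0.089 to 0.058 for Cry1, -0.56 to 0.28 for Dbp, -0.061 to 0.24 for Npas2, -0.24 to 0.0064 for Nr1d2, -0.29 to 0.053 for Per1 and -0.54 to 0.12 for Per2. The spread difference of Cry1 was 0.0039 with a 1 CPM filter and 0.016 with squared deviations. Without 1 library it ran from -0.10 to 0.040, for Arntl from -0.24 to 0.31, for Ciart from -0.063 to 0.41 and for Nr1d2 from -0.031 to 0.13. The slope of Thra was 0.0037 with upper-quartile scaling, 0.0021 with a 1 CPM filter, 0.00036 without mitochondrial genes, 0.0068 with place in the numbering and -0.019 to 0.015 without 1 library.

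The labels do not say whether the replicate number pairs animals, and the values cannot exclude it. Deviations of same-numbered libraries correlated from -0.20 to 0.42, and over 0.1 in 2 of 7 pairs. A library correlated best with its own number in 2 of 7 kidney disease and 1 of 7 wild type cases. With the replicate number as a block, 0.114% of genes were called higher and 0.0919% lower, 4 rising and 7 falling, with 5 members, 3 other clock genes, 0 output genes and 0 glucocorticoid-responsive genes among those that follow Arntl. Under the block Ciart differed by -0.17, the slope of Thra was 0.041 and r of Arntl with Cry1 was -0.0018.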

Other observations

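Between groups, none of the 12 glucocorticoid-responsive genes passed in edgeR, DESeq2 or limma-voom, with 2 at an unadjusted p under 0.05, beside 12.4% of all genes. Mt1, a metallothionein, was at a log2 difference of 0.20 (SE 0.09, edgeR adjusted p = 0.35) and Sgk1, a kinase of sodium transport, at 0.47 (SE 0.23, adjusted p = 0.43). None of the 12 immediate early genes passed in any of the 3 tools, with 3 at an unadjusted p under 0.05, beside the same 12.4%. Jun was at -0.24 (SE 0.09, edgeR adjusted p = 0.24), and Ier2 at 0.20 (SE 0.09, adjusted p = 0.35). Junb was at 0.29 (SE 0.13, adjusted p = 0.36) and passed without wild type 3 (0.42, adjusted p = 0.047).

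With Arntl as a covariate, 4 of the 18 further clock genes had an unadjusted p under 0.05 between groups, beside 12.5% of all genes. None of the 18 passed the adjusted threshold. Hlf was at -0.26 (SE 0.09, edgeR adjusted p = 0.17) and Bhlhe40 at 0.25 (SE 0.10, adjusted p = 0.26). Rorb stayed at -0.53 (SE 0.18, adjusted p = 0.19) and Csnk1e at 0.10 (SE 0.05, adjusted p = 0.35). Of 20 sets of values (10 members in 2 groups), none had a library standing apart by Dixon's criterion, which flags about 1 in 20 by chance.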
